A study of Mus musculus with 2 samples.

Results

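Mitochondrial ribosomal proteins are the protein parts of the ribosome that works inside mitochondria. They were taken here as the array's named genes whose symbol begins with Mrpl or Mrps and a digit, which gave 65 of 13840 named genes, 42 of the large and 23 of the small subunit. Their levels were read in mouse lung from 2 single-colour microarrays, of which 1 held wild-type RNA and 1 held Rosa26-Foxm1 RNA. The labels call the wild-type mice FVB/N and male, and the sources used here do not give the strain or sex of the Rosa26-Foxm1 mice. By its name, the Rosa26-Foxm1 line carries Foxm1, a transcription factor of the cell division cycle, under the broadly active Rosa26 promoter. Mice of both groups had received 3-methylcholanthrene (MCA, a carcinogen) at 15 µg per g body weight. They then received 6 weekly injections of butylated hydroxytoluene (BHT, a lung tumour promoter), at 150 µg per g first and 200 µg per g after that. Lungs were taken 12 weeks after MCA, and each array held RNA of left lobes pooled from 3 mice, so neither untreated lung nor single mice were measured here.

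Mitochondria translate the few proteins encoded in their own DNA, all of them core parts of the respiratory chain or of ATP synthase. The ribosome that does so is built on rRNA made in the mitochondrion, but its proteins are encoded in the nucleus, made in the cytosol and imported. Part of these proteins descend from bacterial ribosomal proteins, and the others were added during the evolution of mitochondria. The small subunit binds mRNA and reads codons, and the large subunit forms the peptide bond and passes the new chain to the inner membrane. These genes are active in nearly all cell types, and more so where respiration is high.

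With 1 array per group no test was possible, and every difference below is between 2 pools of lungs. Levels are intensities after quantile normalisation, on which the median of each array, 1.00, served as a floor, and differences are log2 values of Rosa26-Foxm1 minus wild type. The only error that could be measured was the SD between probes of 1 gene, which was 0.31 log2 over 317 genes, 0.38 for the dimmer and 0.23 for the brighter ones. It does not cover differences between mice or between arrays. The probe for Foxm1 itself lay near the floor on both arrays, at 1.13 and 1.23 (log2 difference 0.12), so it did not separate the groups. The sources used here do not say whether it matches the transgene's RNA. Levels of different genes are not compared, because probes differ in brightness.

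Most mitochondrial ribosomal protein genes had a somewhat higher level in Rosa26-Foxm1 lung. Of the 65 genes, 63 were above the floor, all of them on both arrays. Of these, 55 were higher in Rosa26-Foxm1 lung and 8 were lower. Over all 9516 measured genes, 43.9% were higher. The median difference of the 63 genes was 0.33 (1.26-fold), with an SD between genes of 0.31 and a range from -0.91 to 0.94, and the median over all measured genes was -0.06. Among the differences of all measured genes, 44 of the 63 lay above the 75th percentile and 2 below the 25th. The shift was small for most genes: 49 of the 63 lay within the probe SD of the group's median. How many of all measured genes lay as close to their own median was not counted. The 25th and 75th percentiles were 0.18 and 0.50 for the 63 genes, and -0.30 and 0.22 for all measured genes. Taken gene by gene, 33 were higher and 2 were lower by more than the probe SD, against 18.8% and 23.9% of all measured genes.

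Few of these genes differed by much. Of the 63, 9 were at least 1.5-fold higher, which is 14.3% against 7.08% of all measured genes. At least 1.5-fold lower were 2, or 3.17%, against 8.45% of all. None of the 63 reached 2-fold in either direction, against 1.98% of all measured genes that were at least 2-fold higher and 1.51% that were at least 2-fold lower. The 1.5-fold line, a log2 difference of 0.58, had Mrpl42 and Mrpl57 just above it at 0.59 each and Mrpl28 and Mrpl32 just below it at 0.57 and 0.55.

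**Figure D1:**
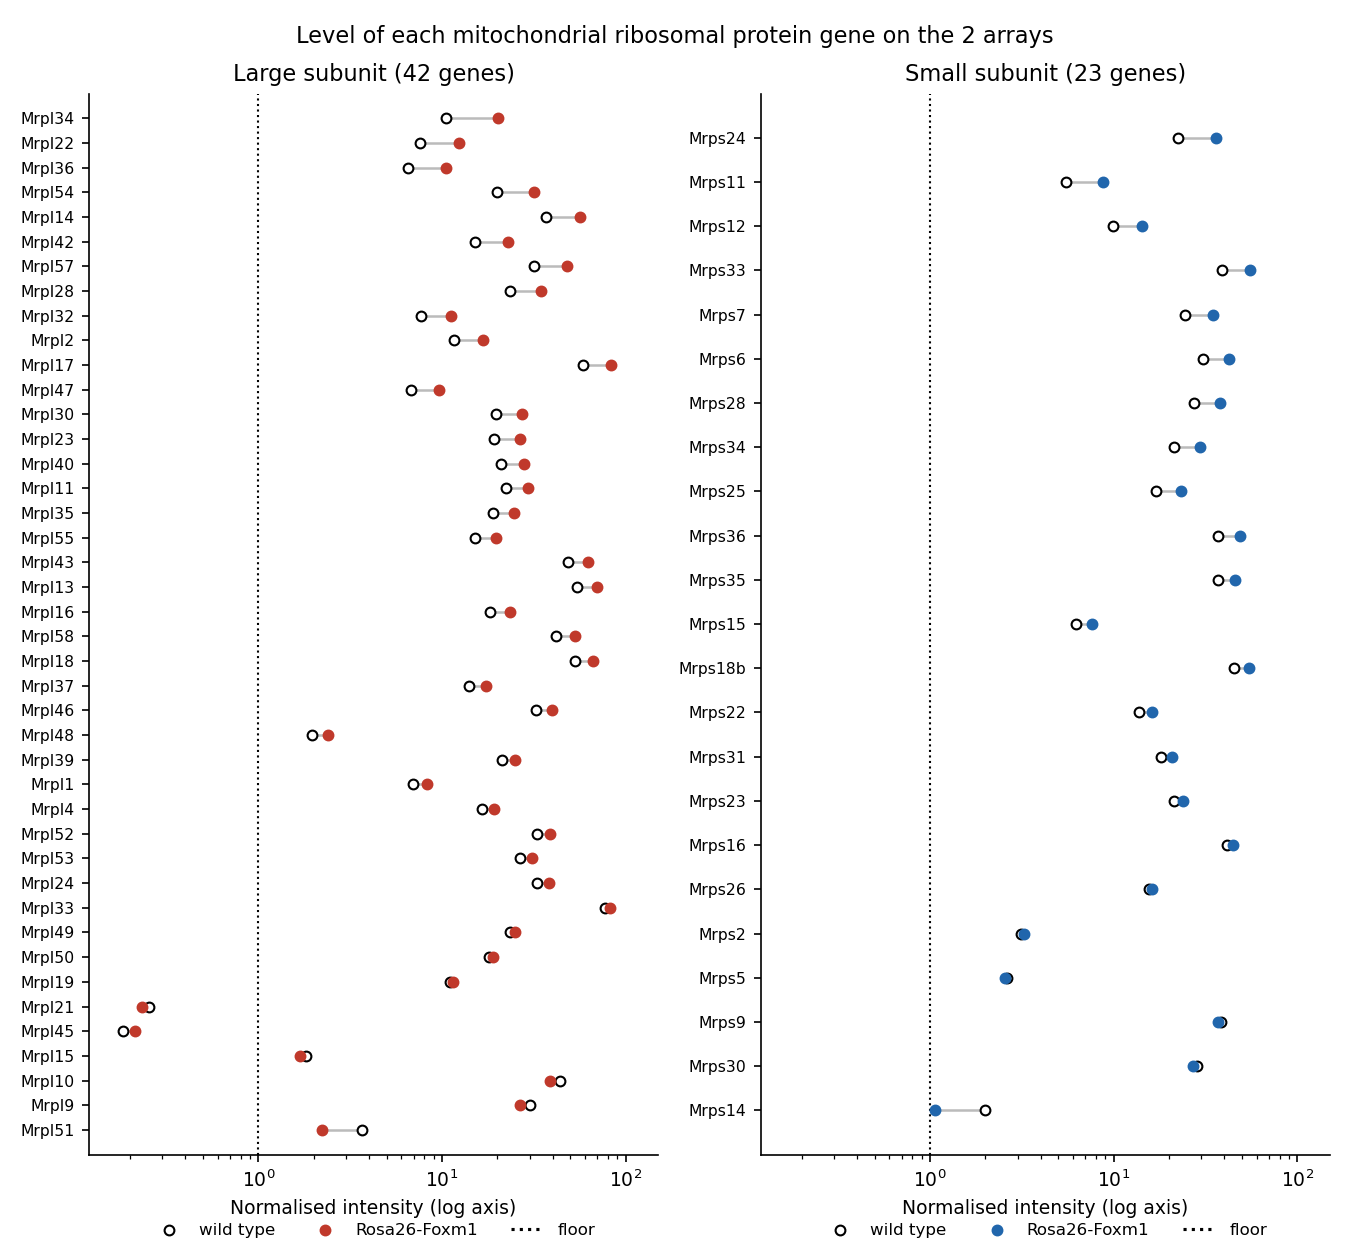
Normalised intensity (log axis) of the 42 large subunit genes (left) and 23 small subunit genes (right), ordered by their difference; open circles are wild-type lung, filled circles Rosa26-Foxm1 lung and the dotted line is the floor at 1.00. Filled circles lie to the right of open ones for 55 of the 63 genes above the floor, and Mrpl45 and Mrpl21 lie left of the floor on both arrays.

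The large subunit gene that differed most was Mrpl34. It encodes a very short, basic rRNA-binding protein that bacteria also have. Its level went from 10.5 in wild type to 20.1 in Rosa26-Foxm1 lung, a difference of 0.94 (1.92-fold), higher than that of 97.8% of measured genes. Of the other short proteins shared with bacteria, Mrpl36 went from 6.53 to 10.5 (0.69, 1.61-fold), Mrpl32 from 7.68 to 11.3 (0.55) and Mrpl35 from 18.8 to 24.7 (0.39). Mrpl33 was nearly level, at 77.2 and 82.6 (0.10). These 5 genes thus ranged from a difference well inside the probe SD to the highest of all members.

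Some large subunit proteins line the peptide tunnel or ring its exit, where the new chain leaves the ribosome, and their genes are given here for that role. Mrpl22, whose bacterial counterpart lines the tunnel's narrow stretch, went from 7.64 in wild type to 12.4 in Rosa26-Foxm1 lung (0.70, 1.62-fold). Mrpl17 went from 58.8 to 83.4 (0.51, 1.42-fold), Mrpl47 from 6.75 to 9.57 (0.50) and Mrpl23 from 19.3 to 26.6 (0.46). Mrpl24 and Mrpl4 differed by less, 33.1 against 38.2 (0.21) and 16.4 against 19.3 (0.23), both inside the probe SD. Mrpl45, which also sits at the exit, was below the floor on both arrays. Near the site of peptide bond formation, Mrpl2 had levels of 11.6 and 16.6 (0.52) and Mrpl16 levels of 18.3 and 23.4 (0.35), so both exceeded the probe SD.

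Genes for the mobile stalks of the large subunit did not lie together. Mrpl11, at the base of the stalk that recruits elongation factors, went from 22.3 in wild type to 29.4 (0.40), and Mrpl10, its neighbour in that stalk, from 43.8 to 38.6 (-0.18). Mrpl1, of the stalk on the side where used tRNA leaves, had 6.95 and 8.24 (0.24). The last of these differences and that of Mrpl10 lie inside the probe SD. At the contact with the small subunit, Mrpl14 went from 36.9 to 56.7 (0.62, 1.54-fold), while Mrpl19 had 11.1 and 11.4 (0.05). Mrpl9, whose bacterial counterpart is a long protein that reaches far out from the large subunit, was lower at 30.1 and 26.5 (-0.19).

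Of the other large subunit proteins shared with bacteria, Mrpl28 went from 23.5 to 34.8 (0.57), Mrpl30 from 19.6 to 27.4 (0.48), Mrpl13 from 54.3 to 69.5 (0.36) and Mrpl18 from 52.9 to 66.1 (0.32). Mrpl15 was close to the floor on both arrays, at 1.81 and 1.69 (-0.10). Among the large subunit proteins that mitochondria added, Mrpl54 went from 19.9 to 31.8 (0.68, 1.60-fold), Mrpl57 from 31.7 to 47.8 (0.59, 1.51-fold) and Mrpl42 from 15.2 to 22.9 (0.59, 1.51-fold). Mrpl58, a peptidyl-tRNA hydrolase of the group of release factors that became part of the ribosome, had 41.9 and 52.8 (0.33). The others of this class that were higher are Mrpl40 (0.42), Mrpl43 (0.37), Mrpl37 (0.31), Mrpl46 (0.30), Mrpl48 (0.28), Mrpl39 and Mrpl52 (0.24 and 0.22), Mrpl53 (0.21), Mrpl49 (0.08) and Mrpl50 (0.06), and Mrpl55 stood at 0.37. Mrpl51 was the large subunit gene that was lowest relative to wild type, at 3.68 and 2.23 (-0.72, 1.65-fold lower), and its level was low on both arrays. Mrpl21, at 0.26 and 0.23, and Mrpl45, at 0.18 and 0.21, were below the floor on both arrays and have no difference here.

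In the small subunit the highest differences were those of Mrps24 and Mrps11. Mrps24, whose bacterial counterpart sits at the mRNA entrance, went from 22.3 in wild type to 36.2 (0.70, 1.62-fold). Mrps11, of the platform near the mRNA exit, went from 5.53 to 8.79 (0.67, 1.59-fold). Mrps12, at the centre where codons are read, had 9.91 and 14.2 (0.52), and Mrps7, of the head near the mRNA exit, 24.5 and 34.6 (0.50). All 4 were higher by more than the probe SD. By contrast Mrps9, whose counterpart reaches to the tRNA in the same head, was level at 38.3 and 36.9 (-0.05). So were Mrps5 at 2.62 and 2.56 (-0.03) and Mrps2 at 3.13 and 3.23 (0.05), both with low levels on the 2 arrays.

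Mrps14, an rRNA-binding protein of the small subunit's head, had the lowest difference of all members, with a level of 1.99 in wild type against 1.06 (-0.91, 1.88-fold lower). Its level in Rosa26-Foxm1 lung was barely above the floor. Mrps33, a protein that mitochondria added, went from 38.6 to 55.0 (0.51) by its brighter probe and from 2.03 to 2.21 (0.12) by its dimmer one. The other gene with a pair of probes, Mrpl49, gave 0.08 and 0.13, so no gene had probes of opposite sign. Of the 3 paralogs of bacterial S18, Mrps18b was the one with a named probe, and it had 44.9 and 54.8 (0.29). Mrps30, which structures place in the large subunit despite its symbol, was at 28.5 and 27.0 (-0.08). Mrps36, which is also known as a part of the oxoglutarate dehydrogenase complex, was at 36.7 and 48.9 (0.41). The remaining small subunit genes were Mrps6 and Mrps28 (0.47 each), Mrps34 (0.47), Mrps25 (0.46), Mrps35 (0.31), Mrps15 (0.29), Mrps22 (0.23), Mrps31 (0.20), Mrps23 (0.16), Mrps16 (0.12) and Mrps26 (0.05), none of them below 0.

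The subunits did not separate. The large subunit had a median difference of 0.35 (1.28-fold, SD between genes 0.30, 40 genes) and the small one of 0.29 (1.22-fold, SD 0.34, 23 genes), so the medians were 0.07 apart. Higher in Rosa26-Foxm1 lung were 36 of 40 large and 19 of 23 small subunit genes. At least 1.5-fold higher were 7 large (17.5%) and 2 small (8.7%) subunit genes, against 7.08% of all measured genes. The ranges overlapped almost wholly: 39 of the 40 large subunit genes lay inside the range of the small subunit and 22 of the 23 small subunit genes inside that of the large one. With Mrps30 counted as large and Mrps36 left out, as structures of the ribosome place them, the medians were 0.35 and 0.29 again. No test of the subunits against each other is given, since genes are not replicates.

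Nor did descent set the genes apart. In the large subunit the 25 measured genes whose proteins have a bacterial homologue had a median difference of 0.39, with 22 of 25 higher, and the 15 without one a median of 0.30, with 14 of 15 higher. In the small subunit the medians were 0.29 for 12 genes with a homologue and 0.31 for 11 without, with 9 of 12 and 10 of 11 higher. All 8 genes that were lower were spread over the classes, with 3 in the large and 3 in the small subunit among those with a homologue and 1 in each subunit among those without. The homologues of Mrpl55 and Mrps28 are placed differently in different sources. With Mrpl55 counted without and Mrps28 with a homologue, an alternative chosen after seeing the data, the 4 medians were 0.40, 0.30, 0.29 and 0.27.

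The lowest 2 differences, those of Mrps14 and Mrpl51, belonged to dim genes. Of the 5 members in the dimmest of 4 classes of all measured genes by mean level (up to 3.00), 1 was higher in Rosa26-Foxm1 lung, and their median was -0.10. Mrps14, Mrpl51, Mrps5 and Mrpl15 are the other 4. Outside that class, 54 of 58 members were higher with a median of 0.36, while 42.4% of the 7134 genes measured there were higher, with a median of -0.06. This split was chosen after seeing the data. The 4 members outside it that were lower are Mrpl9, Mrpl10, Mrps30 and Mrps9.

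Genes of this group are short, and on these arrays short genes were higher in Rosa26-Foxm1 lung. The genomic length, from the start to the end of the gene, had a median of 7.63 kb over the 63 members (0.825 kb for Mrpl53 to 122 kb for Mrps28) and of 20.2 kb over all measured genes. In 5 classes of length from short to long, the median difference of all genes went from 0.14 through -0.01, -0.07 and -0.11 to -0.21. The members' medians in the same classes were 0.37 (28 genes), 0.33 (23), 0.22 (6), 0.28 (4) and 0.38 (2). Spearman's rho between difference and length was -0.27 across 9512 genes and -0.12 across the 63 members, given as a description since genes share the 2 arrays. Mrps28, the longest member, had a difference of 0.47, and Mrps6, at 53.9 kb, also 0.47.

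When the trend of all genes with length was subtracted, most of the members' difference was left. The trend was a lowess curve over log2 length, and it had a median of 0.05 at the members' lengths. Their median after subtraction was 0.30, with 53 genes above 0 and 10 below, against -0.001 over all measured genes. The large subunit had 0.31 (35 of 40 above 0) and the small subunit 0.26 (18 of 23 above 0). The order at the top changed, with Mrpl34 at 0.74, Mrpl22 at 0.68 and Mrps28 at 0.68, because a gene as long as Mrps28 stood at -0.21 on the curve. Among genes that were both in the shortest length class and in the brighter 2 of the 4 level classes, 23 of 24 members were above 0 with a median of 0.39, and 66.7% of 981 other genes with a median of 0.15. Length thus moved with the difference over all genes, and among short and bright genes the members' median was above that of the others. The part of length in the result beyond these values was not tested.

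**Figure D2:**
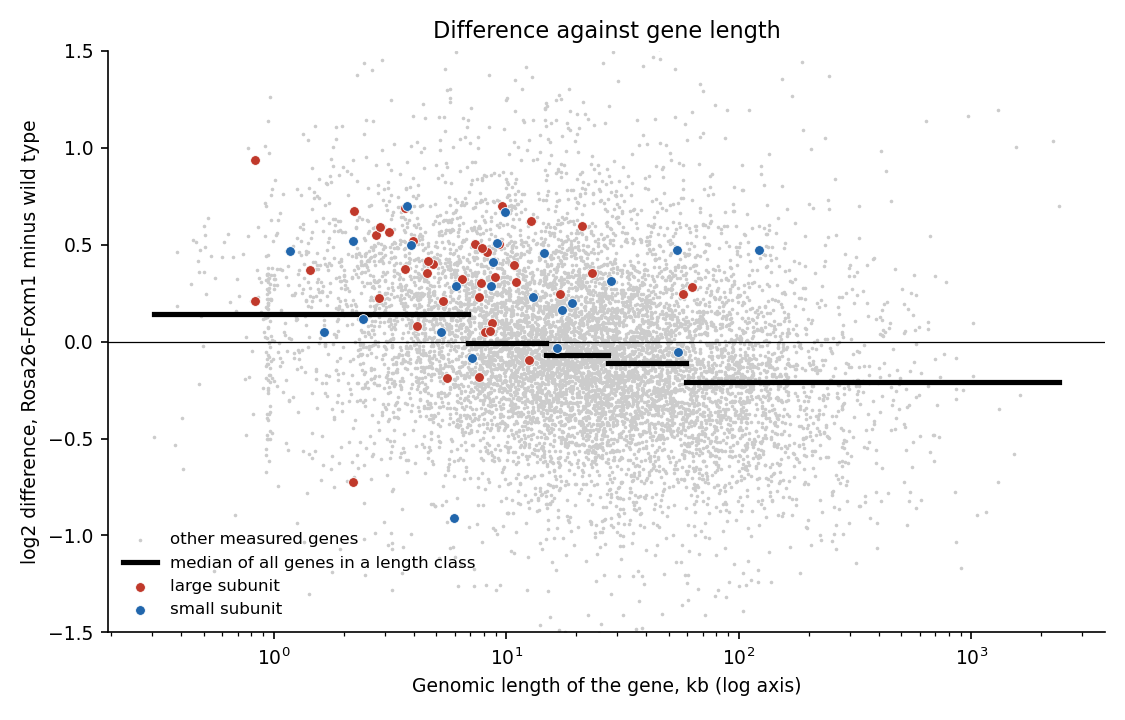
Log2 difference of each measured gene against its genomic length in kb (log axis); grey points are other genes, coloured points large and small subunit genes, and black bars the median of all genes in each of 5 length classes, from 0.14 in the shortest to -0.21 in the longest. Most members lie above the bar of their class, the short ones and the few long ones alike; genes beyond ±1.5 are not drawn.

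Related groups of genes had medians from -0.18 to 0.33, beside -0.06 for all measured genes. The nuclear-encoded subunits of the respiratory chain mostly belong to complexes that also hold products of the mitochondrial ribosome. Their median was the same as that of its proteins, 0.33, with 47 of 57 higher, against 43.9% of all measured genes. At least 1.5-fold higher were 4, or 7.02%, close to the 7.08% of all measured genes. None was lower by that much, against 8.45% of all. Cox5a, a subunit of cytochrome c oxidase, went from 60.6 to 103.8 (0.78), and Ndufb9, of complex I, from 40.9 to 66.6 (0.70). The lowest of the group were Cox8b at 13.9 and 9.37 (-0.57) and Sdha at 79.1 and 57.9 (-0.45). After the length correction the median was 0.22, against 0.30 for the ribosomal proteins. The import machinery had a median of 0.27 with 9 of 14 higher, led by Timm8b, a chaperone of the intermembrane space, at 17.8 and 30.9 (0.79), and Timm10, another, at 3.08 and 4.77 (0.63). Tomm34 was the lowest at 100.7 and 77.8 (-0.37).

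Genes of the same translation apparatus that are not ribosomal proteins had medians near or below 0. Over all measured genes the median was -0.06 and 43.9% were higher. Of the 11 measured translation factors 2 were higher and 9 lower, with a median of -0.08 (0.003 after the length correction). Tufm, the elongation factor that brings in tRNA, was level at 29.6 and 28.3 (-0.07), and the initiation factor Mtif2 was at 12.5 and 9.01 (-0.47). The release factor Mtrf1 was at 3.34 and 2.28 (-0.55), and its relative Mtrf1l, near the floor, at 1.13 and 2.23 (0.98). Of 18 assembly factors of the mitochondrial ribosome 5 were higher and 13 lower, with a median of -0.05 (-0.09 after the length correction). They ranged from Mettl15, an rRNA methyltransferase, at 7.83 and 5.54 (-0.50) to Mrm2, another, at 12.3 and 16.4 (0.42). Of 17 genes that charge mitochondrial tRNA 6 were higher and 11 lower, with a median of -0.18 (-0.09 after the length correction). Rars2 was at 5.06 and 7.14 (0.50) and Lars2 at 28.7 and 23.3 (-0.31), while Gatb, below the floor in Rosa26-Foxm1 lung, was at least 2.43-fold lower.

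Proteins of the mitochondrial ribosome whose symbols do not follow the naming rule had smaller differences than most that do. Gadd45gip1 (0.19), Chchd1 (0.19) and Dap3 (0.13) were higher and Ptcd3 was at -0.05, all inside the probe SD. These 4 genes had a median of 0.16. Genes of mitochondrial DNA copying and transcription had a median of -0.11 (-0.08 after the length correction) with 4 of 11 higher, against 43.9% of all measured genes. Tfam, which packs that DNA and takes part in its transcription, was at 13.6 and 12.6 (-0.11). The RNA polymerase Polrmt was at 32.2 and 25.3 (-0.35) and the DNA polymerase Polg at 12.9 and 9.52 (-0.44). The 10 measured enzymes of the tricarboxylic acid cycle had a median of 0.02 (0.05 after the length correction). Cs, the citrate synthase often used as a measure of mitochondrial mass, was at 231 and 154.1 (-0.58), Dlst at 15.0 and 9.59 (-0.65) and Mdh2 at 43.4 and 55.1 (0.35). Thus groups of genes for mitochondrial proteins had medians on both sides of the -0.06 of all measured genes, some of them close to it. They were not pooled.

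The cytosolic ribosomal proteins are the comparison closest in kind. By their symbol pattern 65 genes were measured, with a median of 0.14, 46 higher and 19 lower, and 0.04 after the length correction. The pattern also took 7 genes for S6 kinases and Rps19bp1, which are not part of the ribosome. Without them, a choice made after seeing the data, the median of 59 genes was 0.14 with 45 higher. This value depended on scaling. With median scaling or the deposited values the pattern's median was 0.35 and with loess 0.20, against 0.38, 0.38 and 0.36 for the mitochondrial ribosomal proteins. No order of the 2 ribosomes is therefore given.

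Regulators linked to mitochondrial genes showed no common direction, with a median of 0.01, 5 higher and 4 lower. Among the 5 is Foxm1 itself, near the floor on both arrays at 1.13 and 1.23 (0.12). The median turned to -0.02 with median scaling or the deposited values and to -0.18 with a floor at the 75th percentile. Myc, which drives growth genes including many ribosomal ones, was at 5.25 and 8.22 (0.65, 1.57-fold). The coactivators Ppargc1a and Ppargc1b were at 1.39 and 2.04 (0.55) and at 2.45 and 3.50 (0.52), both near the floor. Nrf1, a transcription factor for nuclear genes of mitochondria, was at 9.97 and 8.60 (-0.21), Yy1 at 64.0 and 56.5 (-0.18) and Esrra at 6.75 and 6.78 (0.01). Gabpa, the ETS factor that shares many of these targets, was below the floor on both arrays. Ppara was at 5.59 and 4.17 (-0.42).

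**Figure D3:**
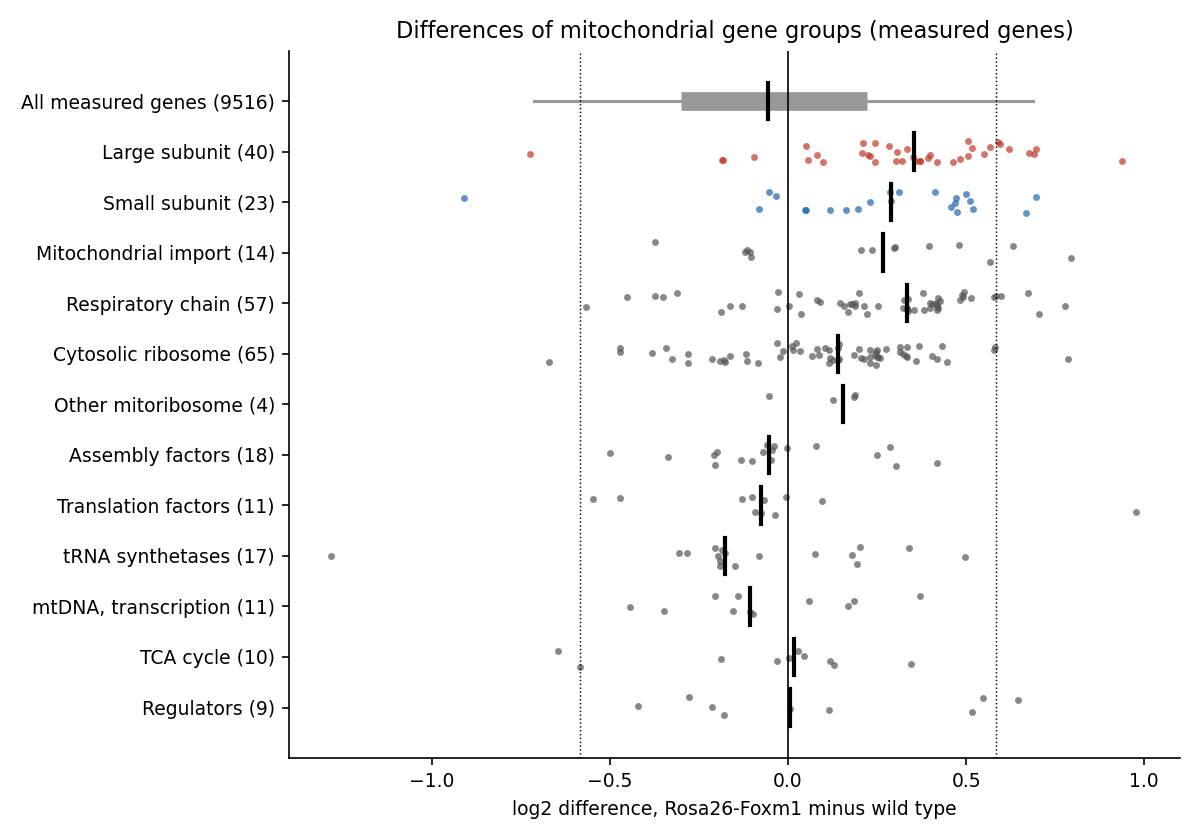
Log2 difference (Rosa26-Foxm1 minus wild type) of the measured genes of each group, with their number in brackets; points are genes, black ticks medians, dotted lines 1.5-fold, and for all measured genes the thick bar spans the 25th to 75th and the thin line the 5th to 95th percentile. Medians stand between 0.27 and 0.35 for both subunits, the respiratory chain and import, and between -0.18 and 0.02 for assembly and translation factors, tRNA synthetases, mitochondrial DNA and transcription, the tricarboxylic acid cycle and regulators.

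Features of the genome that the symbol rule did not use can be set beside these values: the sequence before the start of each gene and the gene that begins on its other side. RefSeq promoter windows of the mouse build GRCm38.p6, from 250 bases before to 50 after the start, were at hand for 57 of the 65 members, 63 windows in all. The motifs searched on both strands were GCATGCGC (NRF1), CCGGAAG (ETS family, which includes Gabpa) and AAGATGGCG (YY1). Below are the upstream stretches outside any annotated gene of 4 members. Mrpl34 is shown as the member with the highest difference, Mrpl32 for its repeated NRF1 motif, Mrpl17 because it holds both the NRF1 and the ETS motif, and Mrpl10 as a member that was lower and still has an NRF1 motif. Each runs 5′ to 3′ toward the gene, with motif matches in capitals: Mrpl34 is at chr8:71464708-71464925 on the plus strand, Mrpl32 at chr13:14613038-14613241 on the minus strand, Mrpl17 at chr7:105811088-105811337 on the minus strand and Mrpl10 at chr11:97041370-97041581 on the plus strand.
Mrpl34: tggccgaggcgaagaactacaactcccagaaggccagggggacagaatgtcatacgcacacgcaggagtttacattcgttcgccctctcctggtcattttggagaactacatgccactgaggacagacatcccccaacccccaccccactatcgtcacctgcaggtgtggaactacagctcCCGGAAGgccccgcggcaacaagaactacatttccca
Mrpl32: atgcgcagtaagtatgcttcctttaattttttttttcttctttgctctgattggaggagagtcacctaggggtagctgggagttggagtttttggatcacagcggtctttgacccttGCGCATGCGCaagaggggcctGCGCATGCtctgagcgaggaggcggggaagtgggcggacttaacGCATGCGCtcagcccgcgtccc
Mrpl17: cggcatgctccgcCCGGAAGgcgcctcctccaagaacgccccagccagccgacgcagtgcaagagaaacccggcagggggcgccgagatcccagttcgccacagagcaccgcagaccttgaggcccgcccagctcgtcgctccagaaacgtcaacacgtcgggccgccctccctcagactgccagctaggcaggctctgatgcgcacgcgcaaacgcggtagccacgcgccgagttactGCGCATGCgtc
Mrpl10: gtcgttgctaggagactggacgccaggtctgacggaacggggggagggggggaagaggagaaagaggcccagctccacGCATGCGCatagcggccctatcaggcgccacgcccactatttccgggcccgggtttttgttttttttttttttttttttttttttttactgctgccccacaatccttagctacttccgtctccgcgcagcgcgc

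The window of Mrpl34 has its ETS match at -37 to -31 from the start. In Mrpl32 the NRF1 letters, which nearly mirror themselves on the other strand, matched 4 times at 3 places, the nearest at -22 to -15. Mrpl17 has NRF1 at -11 to -4 and ETS at -237 to -231, and Mrpl10 has NRF1 at -134 to -127. The first 3 of these genes had differences of 0.94, 0.55 and 0.51 and Mrpl10 one of -0.18.

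The 3 motifs were each found in a larger share of member windows than of other windows. The NRF1 motif was in 8 of 63 member windows (12.7%, Wilson 95% interval 6.58 to 23.1), against 2.71% of all 32851 windows and 4.66% of the 9879 windows of measured genes. The ETS motif was in 20 (31.7%, 21.6 to 44), against 8.86% and 15.5%, and the YY1 motif in 6 (9.52%, 4.44 to 19.3), against 1.40% and 2.62%. Intervals cover counting error only, and windows of the same gene can overlap. For ETS the gap depended on the letters: the longer CCGGAAGT was in 12.7% of member windows (6.58 to 23.1), an interval that holds the 7.33% of windows of measured genes. No matches of different motifs shared bases. Member windows have a median GC content of 58.7%, close to the 60% of measured genes and above the 52.7% of all windows. Among windows with at least 21 CpG, a cut chosen after seeing the data, the shares were 14.3%, 34.3% and 5.71% in 35 member windows and 6.37%, 21.3% and 3.53% in 4396 windows of measured genes, and for the longer ETS letters 11.4% and 9.65%. By subunit, NRF1 was in 7 of 42 large and 1 of 21 small subunit windows, ETS in 13 and 7, and YY1 in 4 and 2. ETS matches lay close to the start, 23 of 25 of them from -100 onward.

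Holding a motif did not go with a higher difference in a uniform way. The median was 0.27 for 8 members with the NRF1 motif and 0.35 for 47 without, and 0.29 for 19 with and 0.38 for 36 without the ETS motif. For YY1 it was 0.63 for 6 members (Mrpl35, Mrpl36, Mrpl37, Mrpl42, Mrps11 and Mrps24) and 0.30 for 49 without. Over all measured genes with a window, the medians were -0.06 both for the 246 genes with the YY1 motif and for the 7478 without. A match is a run of letters and not a bound site, and the values with and without are a description of few genes.

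Many of these genes start head to head with another gene. Of the 57 members with a window, 22 (38.6%) had a gene on the opposite strand that starts within 1000 bases and runs the other way, against 17.5% of measured genes and 13.2% of protein-coding genes. In 12 of these pairs the partner was no member and both genes were measured. In 10 of the 12 the member had the higher difference, with a median gap of 0.49 (0.33 and 9 of 12 after the length correction). The members of these pairs had a median of 0.39, with 10 of 12 above 0, and their partners one of -0.10, with 4 of 12 above 0. The partners' median was close to that of all measured genes, -0.06, of which 43.9% were above 0. Whether the gap is particular to head-to-head pairs was not tested. Mrpl50 (0.06) and its partner Zfp189 (0.04) were nearly level. The 13 measured partners that are no members, Ighmbp2 beside Mrpl21 included, had a median length of 14.5 kb.

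Single pairs show the range. Mrpl14 (0.62) starts 131 bases from Tmem63b, an ion channel gene, at 26.7 and 22.5 (-0.25). Mrps12 (0.52) starts 147 bases from Sars2, the mitochondrial seryl-tRNA synthetase, at 4.26 and 3.73 (-0.19). Mrpl43 (0.37) and Twnk, the mitochondrial DNA helicase (-0.14), start 116 bases apart. Mrpl2 (0.52) is paired with the kinesin light chain gene Klc4 (0.04), Mrps7 (0.50) with the trafficking adaptor gene Gga3 (-0.02), Mrpl40 (0.42) with the histone chaperone gene Hira (-0.10) and Mrpl18 (0.32) with the chaperonin gene Tcp1 (-0.10). Mrpl47 (0.50) shares its start region with Ndufb5, a complex I subunit (0.17). The partner had the higher difference in 2 pairs, Fau (0.40) beside Mrpl49 (0.08) and the condensin gene Ncapd2 (-0.38) beside Mrpl51 (-0.72). Zfp661, beside Mrps5, was below the floor in Rosa26-Foxm1 lung, so its -0.55 is a bound. Mrpl46 and Mrps11 start head to head with each other, 42 bases apart, and were both higher (0.30 and 0.67).

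**Figure D4:**
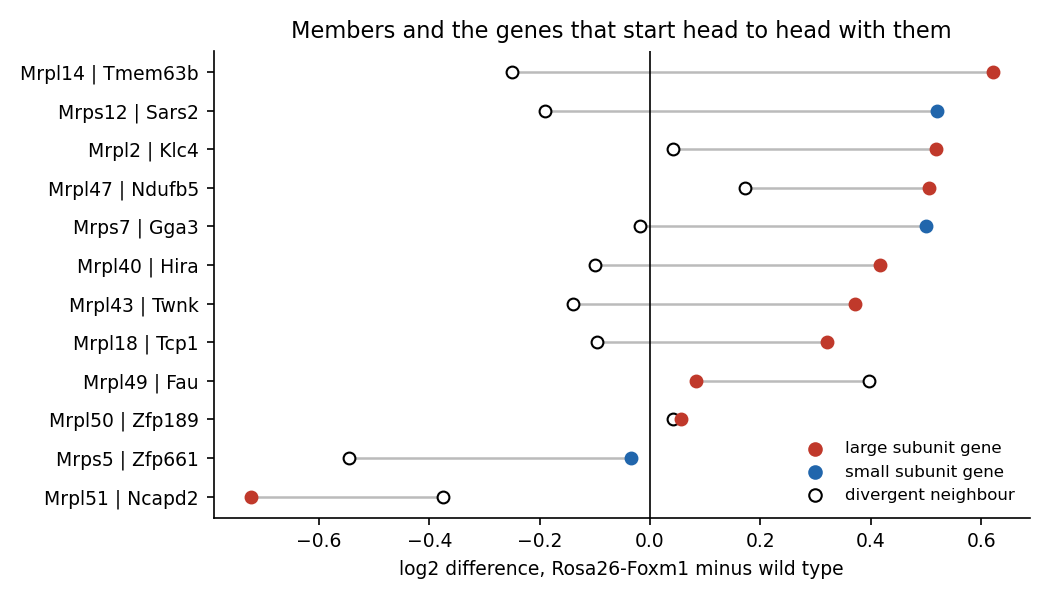
Log2 difference of 12 member genes (filled circles, coloured by subunit) and of the measured gene that starts head to head with each (open circles); rows are pairs ordered by the member's difference. The filled circle lies to the right in 10 of the 12 pairs, the exceptions being Mrpl49 with Fau and Mrpl51 with Ncapd2.

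Markers of cell types differed between the same 2 arrays, and their part in the result was not tested. In RNA of whole lobes, fewer cells of a type and less RNA per cell cannot be told apart. Of 13 endothelial markers 12 were lower, 10 of them at least 1.5-fold, with summed levels of 2247 in wild type against 1345. Sums here weigh bright probes most, such as Cldn5 (939.6 and 629.5) and, among macrophage markers, Chil3 (586.8 and 790.2). To set beside these and the following counts, a drop of 1.5-fold or more was seen in 8.45% of all measured genes. A level above that of wild type was seen in 43.9%. All 5 measured club cell markers were lower (6067 and 4234), as were all 8 of fibroblasts and smooth muscle (910.2 and 726.2). Of 10 macrophage markers 7 were higher (687.5 and 1168). Gpnmb, of lipid-laden macrophages, was at 5.86 and 125.4, while Siglecf and Marco, of resident alveolar macrophages, were lower at 14.7 and 6.15 and at 1.69 and below the floor, as was Adgre1 (-0.56). Of 6 plasma cell markers 4 were higher (274.8 and 621.6), a sum that turned on Jchain at 49.3 and 412.6, while Xbp1 was at 174.4 and 158.6 and Sdc1 at 42.8 and 28.2. Of 7 type II cell markers 2 were higher (4800 and 4715), and Scgb1a1, the airway secretory protein that defines club cells, was at 2544 and 1767. Of 8 proliferation markers 5 were higher (128.2 and 135.7), with Birc5 at 4.06 and 9.03 and Cdk1 below the floor on both arrays. The 2 measured red blood cell markers, Hba-a1 and Alas2, were lower (2181 and 1659).

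Muscle and brown fat are rich in mitochondria, so their markers were read too. Of 9 cardiac markers, which mouse lung carries in its pulmonary veins, 3 were higher and 6 lower, with sums of 1036 and 767.2, Myh6 at 377.1 and 193.7, and Ryr2 below the floor on both arrays. Of 5 measured skeletal muscle markers 3 were higher and 2 lower, with a median of 0.22 and sums of 24.67 and 22.04. Mylpf was at 1.27 and 2.69 (1.08) and Ckm was lower (-0.45), and Atp2a1 was below the floor on both arrays. Of 5 brown fat markers, the 2 measured were higher, Ppargc1a (0.55) and Fabp4 (0.28), which other cells also express, and the defining markers Ucp1, Cidea and Elovl3 were below the floor on both arrays.

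**Figure D5:**
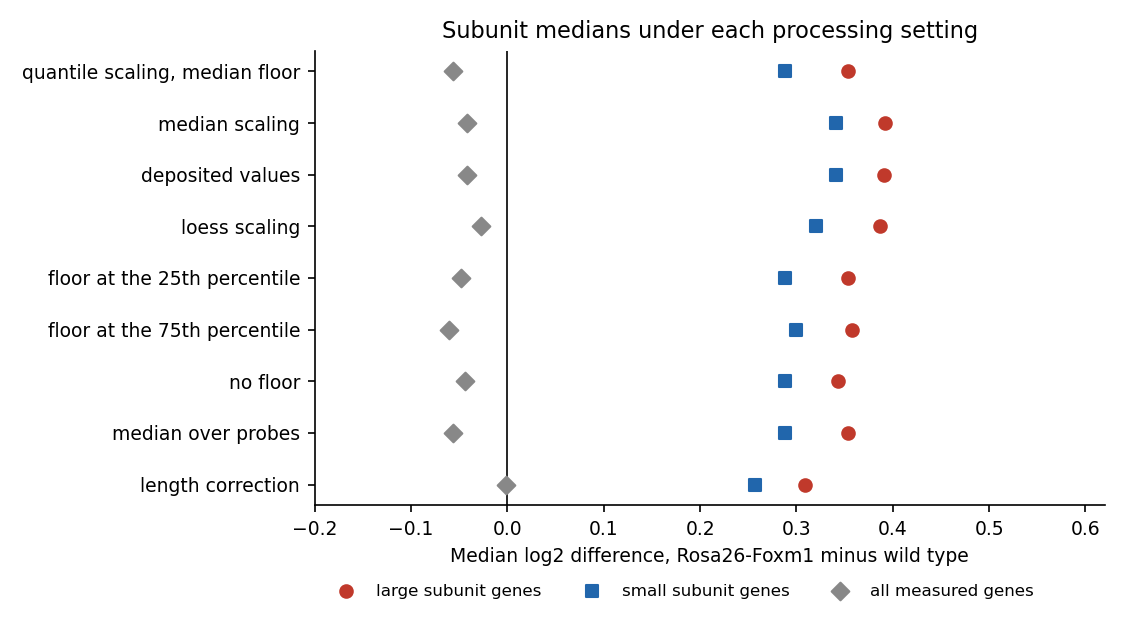
Median log2 difference of large subunit genes (circles), small subunit genes (squares) and all measured genes (diamonds) under 9 processing settings, listed on the vertical axis. The large subunit stays between 0.31 and 0.39, the small between 0.26 and 0.34 and all genes between -0.06 and -0.001.

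Both subunit medians stayed above 0 and above the median of all genes under each of the 9 settings drawn. A lower floor or none could not move the measured members, which were all above it on both arrays, and median scaling nearly repeats the deposited values. The members' median less that of all measured genes was 0.39 as reported and ranged from 0.30 with the length correction to 0.42 with median scaling or the deposited values.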

How the data were processed

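Total RNA was labelled with digoxigenin and read on single-colour arrays by chemiluminescence, per the labels' protocols. The authors deposited intensities on a linear scale, and the sources used here name no image software, background correction or normalisation for them. Both columns had a median of 1.00, and their 95th percentiles were 67.5 and 71.8, so they were scaled to the median but not quantile normalised when deposited. There are 33012 probes, of which 14411 had 1 gene in the platform annotation and were named, 247 had several and 18354 had none listed in the table used here. Symbols were updated through the gene ID, and 13832 of 13840 named genes matched RefSeq of GRCm38.p6, which also gave gene lengths and promoter windows.

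Both arrays were quantile normalised (mean of sorted values), values under the 50th percentile (1.00) were raised to that floor, and the log2 of the result was used. Genes above the floor on at least 1 array counted as measured (9516 genes), each through the probe with its highest mean. Folds of 1.5 and 2 were counted. The length trend was a lowess (span 0.3) on log2 genomic length, fitted over all measured genes. The members and lists were chosen with earlier results of these data known. Both array values are given for the 5 highest and 5 lowest differences of each subunit, the 3 brightest members of each, members past 1.5-fold, the S18 paralogs and up to 2 genes at each end of a list, and other members and markers are named for their role. There is 1 array per group, so no test was run, and precision is limited by the number of arrays. The alternatives tried were the deposited values, median scaling, a loess of the log ratio, floors at the 25th and 75th percentile or none, the median over probes and the length correction. Python 3.11.15, numpy 2.4.6, pandas 2.3.3, scipy 1.17.1, statsmodels 0.14.6 and matplotlib 3.10.9 were used.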

Additional observations from a re-analysis of the deposited data

How the results depend on the processing

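The medians of both subunits, the gap between them and the counts of members above 0 and at least 1.5-fold higher stayed close under every alternative run. The large subunit's median ranged from 0.309 with the length correction to 0.392 with median scaling, the small one's from 0.257 to 0.341 and the gap from 0.051 to 0.067. Members above 0 numbered 53 to 56 and those at least 1.5-fold higher 7 to 11. Members at least 1.5-fold lower were 2, and 0 with the floor at the 75th percentile, where Mrps14 and Mrpl51 were no longer measured and 57 members were left. Of 498 values of single members under an alternative, 497 moved by less than the probe SD, and the other is Mrps11, at 0.236 with the floor at the 75th percentile. Many of the 498 could not move. All 63 measured members lay above the floor on both arrays, so a lower floor or none left them unchanged. Only 2 members have 2 probes, and median scaling nearly repeats the deposited values. Of the 498 values 9 changed sign, 6 of them with the length correction (Mrpl49, Mrps2, Mrps5, Mrps9, Mrps16 and Mrps26), and Mrps9 also with median scaling or the deposited values and Mrps5 with loess. The reported differences of these genes were no larger than 0.12 in size. Among related groups, the respiratory chain's median was 0.394 with median scaling or the deposited values and 0.220 with the length correction, and that of mitochondrial DNA and transcription -0.227 with the floor at the 75th percentile over 4 genes. The cause was not tested. With the longer letters CCGGAAGT the ETS share of member windows was 12.7%, against 7.33% of the windows of measured genes. Transcript and coding lengths were not used here, so the length alternative was not run. No paired analysis was possible because each group has 1 array. Signal over background limits Mrps14, Mrpl51, Mrpl15, Mrpl48 and Mrps5, which lie near the floor.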

Other observations

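Genes for mitochondrial ribosomal proteins are scattered over the mouse genome, on 17 chromosomes, with at most 8 of them on any chromosome, which is 11. Among chromosomes with at least 3 measured members, the median difference of the members was above 0 on all except chromosome 1. Chromosome 17 had a median of 0.49 over 6 genes, with the lowest at 0.29 and the highest at 0.62, and chromosome 7 had a median of 0.48 over 6 genes, with the lowest at 0.28. On chromosome 11 the 7 measured members ranged from -0.18 for Mrpl10 to 0.70 for Mrps24, with a median of 0.37. On chromosome 1 the 4 members, Mrps14 and Mrps9 among them, had a median of -0.07, and on chromosome 2 the 3 members had one of 0.05. These values are given as a description, with no test.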
